A study of Mus musculus with 10 samples.

Results

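Imprinted genes are transcribed mainly from the copy inherited from 1 parent, as directed by marks set in the germ line. The 10 genes described here are H19, Igf2, Meg3, Dlk1, Rian, Peg3, Plagl1, Cdkn1c, Grb10 and Mest, a set known for high expression in fetal organs, heart included, and a decline as growth slows after birth. They were chosen by symbol, and all 10 were found among the 23337 genes of the authors' deposited table. In most mouse tissues the active copy is the maternal one for H19, Meg3, Rian, Cdkn1c and Grb10 and the paternal one for Igf2, Dlk1, Peg3, Plagl1 and Mest. Several paternally expressed members promote growth and several maternally expressed members restrain it. Igf2 codes for a fetal growth factor, Cdkn1c for an inhibitor of cyclin-dependent kinases, Grb10 for an adaptor that damps insulin and IGF1 receptor signalling, and Plagl1 for a zinc finger transcription factor that regulates other imprinted genes.

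The study compared 5 GFP with 5 dnMKL1 libraries, each made from heart muscle cells (cardiomyocytes) of wild-type mice at postnatal day 14. Mice of the GFP group had received AAV9-cTNT-GFP and mice of the dnMKL1 group AAV9-cTNT-dnMKL1-GFP, both on postnatal day 1 at 500000000 viral genomes per gram. AAV9 is an adeno-associated virus that reaches the heart, cTNT is the cardiac troponin T promoter, which restricts the transgene to cardiomyocytes, and GFP was carried by both groups. MKL1 (MRTF-A) is a coactivator of serum response factor, SRF, and dnMKL1 is its dominant-negative form. Cells were freed by collagenase perfusion and sorted by fluorescence, so untransduced cells of the same hearts were not profiled separately. No earlier age was measured, and the decline of these genes after birth was therefore not observed here. The allele of origin was not measured either. In bulk RNA, fewer cells of a type and less RNA per cell cannot be told apart.

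Mkl1, the gene from which the transgene derives, had a log2 fold change of 9.80 ± 0.15 (SE) and a base mean of 37491.5 in the authors' deposited table, where its adjusted p is listed as 0. The base mean is the average over the 10 libraries of counts divided by each library's size factor, called normalized counts here. Positive fold changes were read from Mkl1 as higher in dnMKL1. Estimated library totals ran from 8803029 to 17228615 counts. Group means implied by a base mean and a fold change are given below, and they are not means over separate library values.

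The promoters of the 3 members that rose are shown first, because DNA methylation lies mainly on CpGs. They are RefSeq sequences of build GRCm38.p6, running from 250 bases before to 50 bases after an annotated start site, 5′ to 3′, with each CpG in capitals. Plagl1 lies at chr10:13090582-13090881 on the plus strand, Grb10 (the first of 2 start sites) at chr11:12037371-12037670 on the minus strand, and Meg3 (the first of 2) at chr12:109540746-109541045 on the plus strand.
Plagl1: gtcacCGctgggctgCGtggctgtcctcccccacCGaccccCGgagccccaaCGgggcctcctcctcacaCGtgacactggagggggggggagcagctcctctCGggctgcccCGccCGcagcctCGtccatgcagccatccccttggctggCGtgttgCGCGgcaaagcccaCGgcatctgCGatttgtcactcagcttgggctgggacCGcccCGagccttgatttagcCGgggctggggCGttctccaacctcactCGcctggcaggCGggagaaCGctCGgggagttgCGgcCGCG
Grb10: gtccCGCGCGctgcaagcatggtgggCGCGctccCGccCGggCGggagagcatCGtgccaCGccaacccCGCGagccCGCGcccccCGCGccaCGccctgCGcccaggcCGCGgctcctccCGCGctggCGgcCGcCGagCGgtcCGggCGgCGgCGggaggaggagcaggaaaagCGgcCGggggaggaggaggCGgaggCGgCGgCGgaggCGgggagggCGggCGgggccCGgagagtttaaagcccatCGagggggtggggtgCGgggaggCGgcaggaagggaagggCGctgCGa
Meg3: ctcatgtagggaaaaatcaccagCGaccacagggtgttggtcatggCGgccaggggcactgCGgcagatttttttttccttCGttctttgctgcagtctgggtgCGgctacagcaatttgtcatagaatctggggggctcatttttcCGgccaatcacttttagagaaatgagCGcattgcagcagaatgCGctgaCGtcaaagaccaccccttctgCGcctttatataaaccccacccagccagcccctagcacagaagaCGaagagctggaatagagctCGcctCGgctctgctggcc

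The Grb10 window held 45 CpGs and 80.0% G or C, and 1.93% of all 32851 promoters in the RefSeq table had at least as many CpGs. Plagl1 held 26 CpGs, a number reached by 16.9% of promoters, and Meg3 held 13, reached by 37.9%. The median promoter held 7 CpGs and 52.7% G or C. The second start sites of Meg3 and Grb10 held fewer, 1 CpG for Meg3, where 94.6% of promoters had at least as many, and 9 for Grb10. Of the other members, Rian had 0 CpGs in its window, Dlk1 9, Peg3 13, the 3 Mest start sites 8, 17 and 17, and the 4 Igf2 start sites 2, 14, 24 and 7. The CpG counts therefore differed among the members that rose and overlapped those of members that did not pass the test. H19 and Cdkn1c had no promoter sequence here. No methylation was measured, and whether these windows lie in regions of imprinted methylation was not examined.

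CArG boxes, the sequence that SRF binds, were searched on both strands because dnMKL1 acts on an SRF coactivator. They were present in 1.63% of all promoters of the same length and in 2 of the 15 member start sites. The matches lay at the second start site of Meg3, at chr12:109545284-109545333 on the plus strand, and at the second of 4 start sites of Igf2, at chr7:142661397-142661446 on the minus strand. They began 94 and 155 bases before the start, respectively. The capitals mark the CArG box.
Meg3 second start: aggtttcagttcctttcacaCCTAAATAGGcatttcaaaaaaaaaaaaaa
Igf2 second start: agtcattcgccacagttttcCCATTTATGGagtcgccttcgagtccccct
The first Meg3 start had the TATA box TATAAA, searched on both strands, in 2 overlapping matches on opposite strands. The stretch they cover together began 29 bases before the start. TATAAA was found in 13.6% of all promoters and in no window of the other members searched. H19 and Cdkn1c had no promoter sequence and were searched for neither box. These are matches of letters in fixed windows and no measure of binding. Neither Plagl1 nor Grb10 had a CArG box in its window, which says nothing of SRF binding elsewhere.

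Plagl1, Meg3 and Grb10 were higher with dnMKL1 and no member was lower. The authors' deposited table tested 9 of the 10 members, and 3 of these 9 were higher at an adjusted p under 0.05. The same rule called 16.6% of all 14056 tested genes higher and 17.4% lower. None of the 9 was lower by that test, and at an unadjusted p under 0.05 the number of members was again 3, all higher. The median log2 fold change of the 10 members was 0.47, against 0.04 over all 17371 genes with a fold change. The range was -0.51 to 1.70, with 8 values above 0 and 2 below. Among genes with a base mean of 1 to 10, where Dlk1 and Rian lie, the median was 0.25. The maternally expressed members numbered 5, of which 2 were higher, and the paternally expressed numbered 4 tested, of which 1 was higher.

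**Figure D1:**
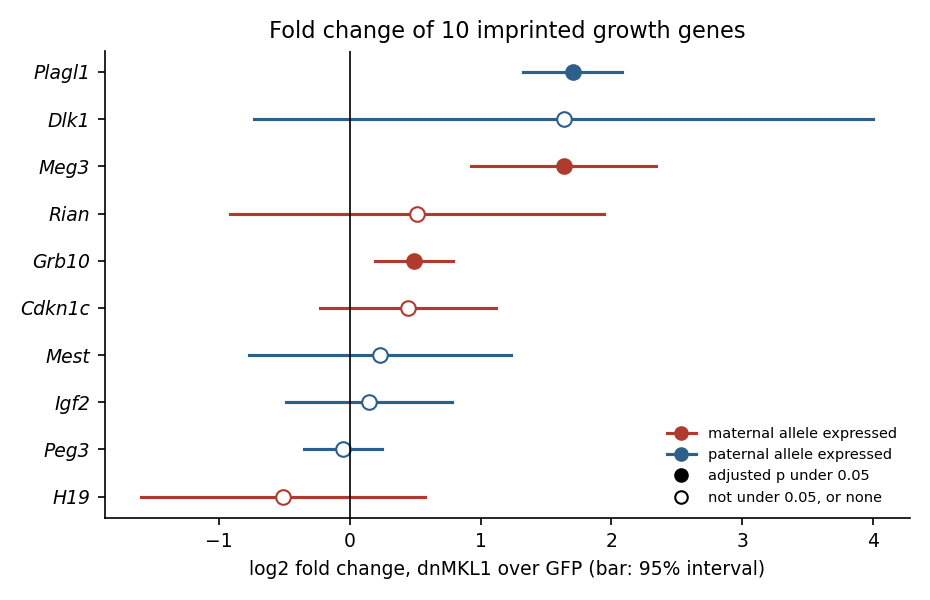
Log2 fold change of dnMKL1 over GFP for the 10 members, with bars for the 95% interval from the deposited SE and colour for the allele usually expressed. Filled points passed an adjusted p of 0.05. Plagl1, Meg3 and Grb10 are filled and lie above 0, and the widest interval is that of Dlk1.

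The members spanned a wide range of levels per kb in GFP libraries, taking the longest GENCODE transcript as length. Grb10 stood highest at 711 normalized counts per kb, above 94.1% of the 15665 genes with a fold change and an annotated length, followed by Mest at 80.2, Plagl1 at 62.9, Peg3 at 48.8, Igf2 at 33.1 and Cdkn1c at 22.3. H19 stood at 7.16, Meg3 at 0.972, Rian at 0.410 and Dlk1 at 0.130, all below the median of 27.9 over those genes. Neighbours in this order have implied means and no library values, except Meg3, Rian and Dlk1, and were not compared by a test. Plagl1 went from above 61.7% of genes in GFP to above 81.5% in dnMKL1, and Meg3 from 22.6% to 29.1%. At day 14, 5 members, Grb10, Plagl1, Peg3, Mest and Igf2, had base means over 100 normalized counts. The set as a whole was therefore not silent in these libraries. The endothelial marker Pecam1 had a base mean of 496.9 in the same libraries. Which cell type gave the members' reads was not measured. H19, Meg3 and Cdkn1c had base means between 10 and 100, Rian of 4.03 and Dlk1 of 1.25.

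**Figure D2:**
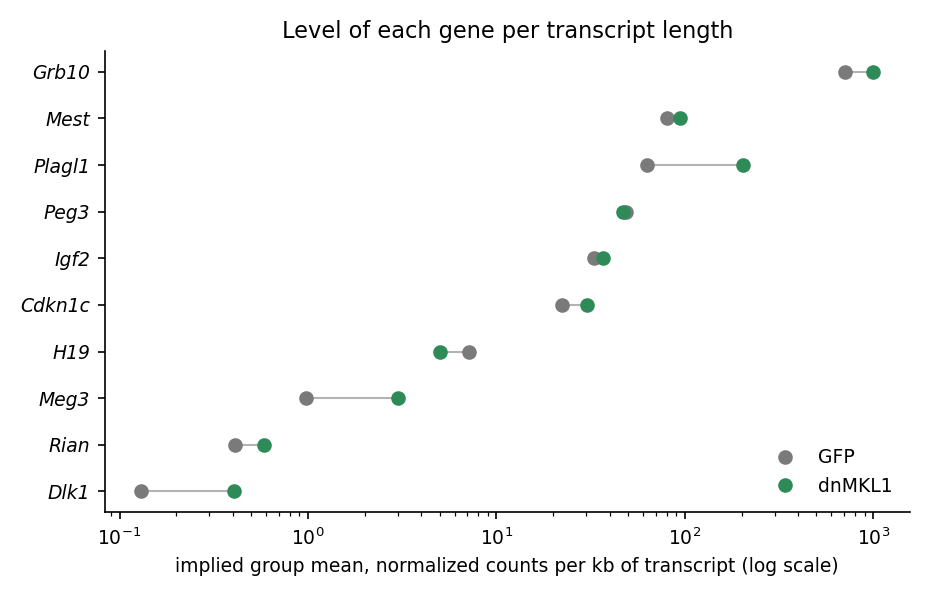
Implied group mean of each member per kb of its longest transcript, on a log scale, for GFP and dnMKL1 libraries, ordered by the GFP level. Grb10 has the highest level and Dlk1 the lowest, and the widest gaps between groups are those of Dlk1, Plagl1 and Meg3.

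Plagl1 (ENSMUSG00000019817.18, chr10:13060504-13131694, plus strand) had the largest fold change of the members. The implied means in the authors' deposited table were 330.7 normalized counts in GFP and 1077 in dnMKL1, a log2 fold change of 1.70 ± 0.19 (SE, 5 libraries a group) with a 95% interval of 1.33 to 2.08. This is 3.26-fold (interval 2.51 to 4.23), with an adjusted p of 6.62e-17 by the authors' Wald test with Benjamini-Hochberg adjustment. Under a negative binomial model, the SE corresponds to a coefficient of variation of 20.5% between libraries beyond counting error. This value, like those given below for other members, comes from the model and is not an observed spread. Individual library values for Plagl1 could not be recovered from its base mean.

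Meg3 (ENSMUSG00000021268.17, chr12:109541001-109571726, plus strand) is a long noncoding RNA, named as such in the annotation, and it is the maternally expressed partner of Dlk1. Its reads per library could be recovered from the deposited row. Among sets of whole reads near its implied group means, 2129 matched its base mean. Of these, 1 also gave its fold change at the deposited SE. The 5 GFP libraries, taken by rising size factor, had 5, 16, 16, 13 and 18 reads, which are 7.57, 24.2, 14.9, 10.7 and 14.0 normalized counts. The 5 dnMKL1 libraries had 58, 27, 23, 66 and 69 reads, which are 71.7, 30.6, 25.0, 47.9 and 43.7 normalized counts. The lowest dnMKL1 library lay just above the highest GFP library, so the groups did not overlap, and the dnMKL1 library at 71.7 stood furthest out. The means were 14.3 ± 6.25 and 43.8 ± 18.2 (SD, n = 5 each), with an exact two-sided permutation p = 0.00794, the smallest that 5 against 5 allows. It was 1 of 3 members compared this way, and the p is not adjusted. For Meg3 the authors' deposited table gave a log2 fold change of 1.63 ± 0.36 (SE) and an adjusted p of 5.32e-05 by the Wald test. Leaving out each library in turn gave 1.40 to 1.86. Meg3 remained a low-level transcript, at 0.972 normalized counts per kb in GFP and 3.02 in dnMKL1, with 311 reads over all 10 libraries.

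Dlk1 (chr12:109452823-109463336, plus strand), which codes for a transmembrane protein of the Notch ligand type and lies upstream of Meg3, was counted in few reads. The GFP libraries by rising size factor had 0, 1, 0, 1 and 1 reads and the dnMKL1 libraries had 2, 0, 2, 3 and 4. In normalized counts the means were 0.622 ± 0.638 and 1.87 ± 1.06 (SD, n = 5 each), and the groups overlapped at 0 (exact two-sided permutation p = 0.0794). Its log2 fold change of 1.63 ± 1.21 (SE) equals that of Meg3 to 2 decimals, but it carried no adjusted p in the authors' deposited table and its 95% interval ran from -0.73 to 4.0. With 14 reads in all, no difference in Dlk1 was detected.

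Rian (chr12:109603940-109661716, plus strand), a noncoding host transcript of small nucleolar RNAs downstream of Meg3, did not pass the test. The GFP libraries had 3, 3, 4, 4 and 1 reads and the dnMKL1 libraries 9, 2, 2, 3 and 9, by rising size factor. Normalized counts were 3.37 ± 1.55 and 4.69 ± 3.90 (SD, n = 5 each). The groups overlapped, and 2 dnMKL1 libraries, at 11.1 and 5.70, lay above every GFP library while the other 3 lay inside the GFP range (exact two-sided permutation p = 0.587). The authors' deposited table gave Rian a log2 fold change of 0.51 ± 0.73 (SE) and an adjusted p of 0.658 (Wald test). It was -0.01 without the dnMKL1 library of size factor 0.809, so 1 library set its sign. That library also gave the highest Meg3 value.

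**Figure D3:**
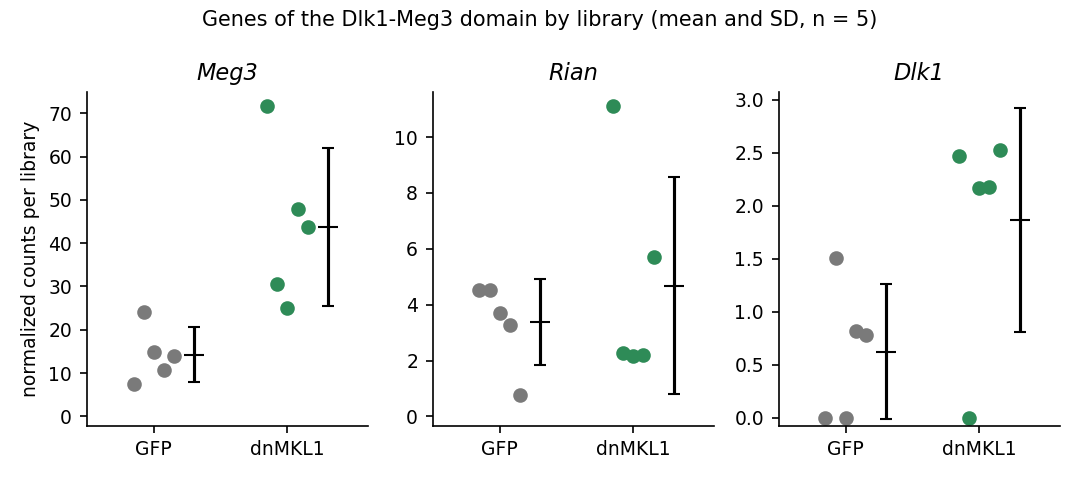
Normalized counts of Meg3, Rian and Dlk1 in each of the 10 libraries (points), with mean and SD per group (bars, n = 5), recovered from the deposited base mean, fold change and SE. The 5 dnMKL1 libraries of Meg3 sit between 25.0 and 71.7, all above the GFP libraries, while the groups overlap for Rian and Dlk1.

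Of the other genes around Dlk1, Rtl1, a gene derived from a retrotransposon, had 10 reads over all libraries, Mirg had 2 and Dio3, which codes for a thyroid hormone deiodinase, had 1. Of 8 neighbours fixed by name, 5 were tested. Slc25a29, a mitochondrial carrier, was lower (log2 fold change -0.66 ± 0.28 SE, adjusted p of 0.0495 in the authors' deposited table, Wald test) and none was higher. Shares over all tested genes were 17.4% lower and 16.6% higher. Among the tested genes of this stretch, Meg3 alone was called higher, and Dlk1, Rtl1, Mirg and Dio3 had no adjusted p.

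Grb10 (chr11:11930508-12038683, minus strand) was the most abundant member and changed least of the 3 that passed. Its implied means in the authors' deposited table were 3599 normalized counts in GFP and 5058 in dnMKL1, a log2 fold change of 0.49 ± 0.15 (SE), or 1.41-fold with an interval of 1.14 to 1.73, and an adjusted p of 0.00590 by the Wald test. The SE corresponds to a coefficient of variation of 16.7% between libraries. Of its 5 neighbours, 4 were tested, of which 2 were higher and 1 lower. Beside them, 16.6% of all tested genes were higher and 17.4% lower, and the difference from these shares was not tested. Ddc rose more than Grb10 itself in log2 fold change (1.11 ± 0.15 SE, implied means 499.7 and 1078), and Cobl rose by 0.38 ± 0.10. Ddc codes for the decarboxylase of dopamine and serotonin synthesis and is paternally expressed in developing heart. Zpbp was lower (-0.60 ± 0.21). The difference between Ddc and Grb10 was not tested.

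Cdkn1c (chr7:143458339-143461050, minus strand) had implied means of 42.4 and 57.6 normalized counts and did not pass the test (log2 fold change 0.44 ± 0.34 SE, 95% interval -0.23 to 1.11, adjusted p of 0.351 in the authors' deposited table). Of its 9 tested neighbours, 4 were higher and 1 lower by the same rule, which called 34.1% of all tested genes (16.6% higher and 17.4% lower), and the difference from that share was not tested. Osbpl5, an oxysterol-binding protein, had implied means of 174.4 and 432.8 (log2 fold change 1.31 ± 0.16 SE, adjusted p of 3.10e-15, Wald test). Tnfrsf23, a decoy receptor of the TNF family, had a log2 fold change of 1.33 ± 0.30 and Cd81, a tetraspanin, 0.34 ± 0.07. Trpm5, an ion channel, had 1 read over the GFP libraries and 19 over the dnMKL1 libraries. Nap1l4, a histone chaperone, was lower by the deposited table's test (-0.41 ± 0.04). Kcnq1ot1, the noncoding RNA of this cluster, had a log2 fold change of 0.37 ± 0.21 and an adjusted p of 0.161.

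**Figure D4:**
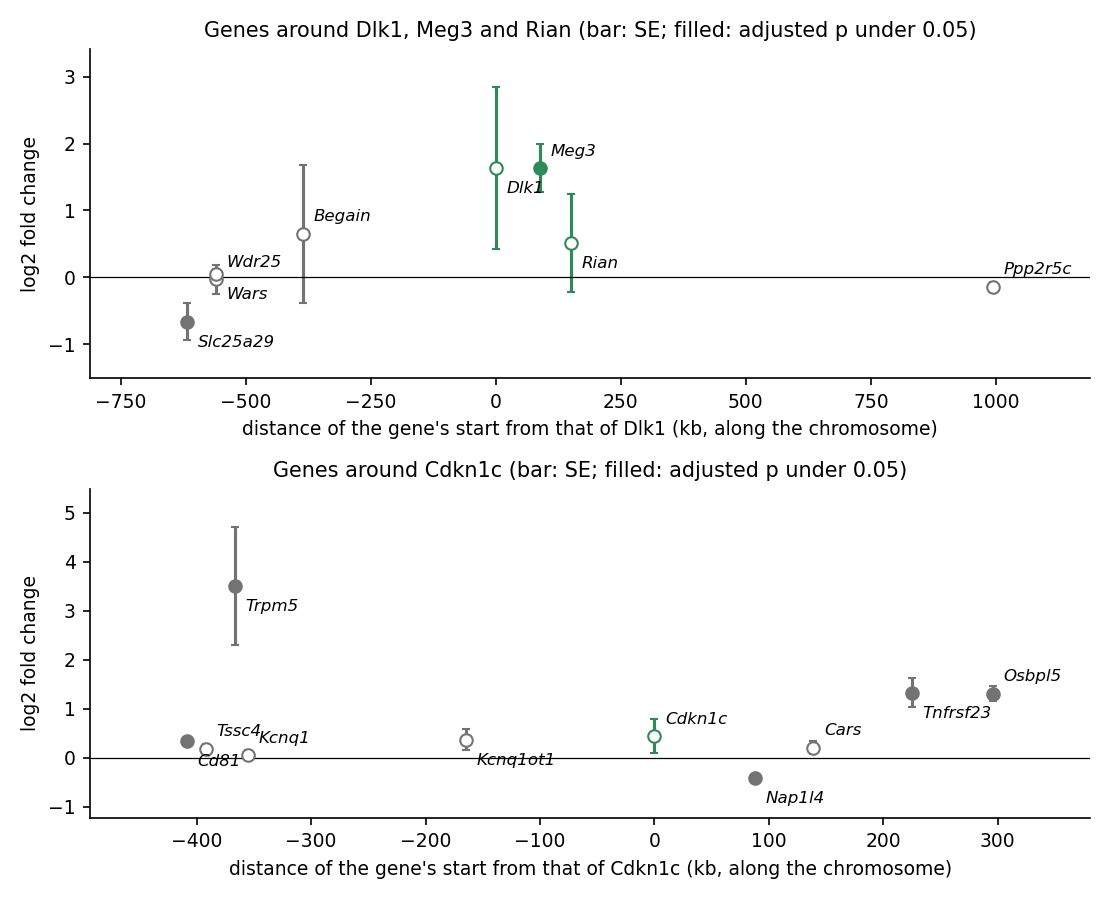
Log2 fold change (bar: SE) of genes around Dlk1, Meg3 and Rian (top) and around Cdkn1c (bottom), by distance in kb of each gene's start from that of Dlk1 or Cdkn1c. Filled points passed an adjusted p of 0.05. Of the members shown, Meg3 passed. Slc25a29 also passed in the top panel, and Osbpl5, Tnfrsf23, Trpm5, Cd81 and Nap1l4 passed around Cdkn1c. Genes with a base mean under 1, such as Rtl1, Mirg and Dio3, are not drawn.

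Igf2 (chr7:142650766-142666816, minus strand) and H19 (chr7:142575529-142578143, minus strand), the noncoding RNA that shares its enhancers, did not pass in either direction. Igf2 had implied means of 156.5 and 173.1 normalized counts in the authors' deposited table (log2 fold change 0.15 ± 0.32 SE, interval -0.49 to 0.78, adjusted p 0.794). H19 had 16.4 and 11.5 (-0.51 ± 0.55 SE, interval -1.59 to 0.57, adjusted p 0.538, Wald test). The SEs correspond to coefficients of variation of 34.6% and 54.1% between libraries, larger than those of Plagl1 and Grb10. A change of H19 from 0.331-fold to 1.49-fold lies within its interval. Tspan32, of 6 tested neighbours, was higher with 2 reads in GFP and 17 in dnMKL1 libraries, and Mrpl23, a mitochondrial ribosomal protein next to H19, was lower (-0.54 ± 0.16 SE, adjusted p of 0.00275 in the authors' deposited table, Wald test). Shares over all tested genes were 16.6% higher and 17.4% lower, and the difference of these neighbours from them was not tested.

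Peg3 (chr7:6703892-6730431, minus strand), a zinc finger protein gene expressed from the paternal copy, had the narrowest interval of the members. Implied means of 424.4 and 408.6 normalized counts in the authors' deposited table gave a log2 fold change of -0.05 ± 0.15 (SE) with an interval of -0.35 to 0.25. Its sign depends on scaling, as it was 0.23 with both groups scaled to the same total. Mest (chr6:30723547-30748465, plus strand), which codes for a hydrolase-like protein of mesoderm, had 213.7 and 250.2 (log2 fold change 0.23 ± 0.51 SE, interval -0.77 to 1.23). Its coefficient of variation was 55.6%. Exons of Mest overlap those of Copg2 on the opposite strand, which had a base mean of 1031, and the kit does not mark strand, so reads in the overlapping exons could not be told apart. Exons of H19, Igf2, Meg3, Plagl1 and Cdkn1c also overlap annotated genes of the opposite strand, none of which is a row of the authors' deposited table, and the same limit holds there. The 1 tested of 4 neighbours of Peg3 and the 4 tested of 5 neighbours of Mest did not pass.

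Of 5 neighbours of Plagl1, all tested, 3 were higher, beside 16.6% of all tested genes, and the difference from that share was not tested. Stx11, a syntaxin of immune cells, had 14.8 ± 3.21 normalized counts in GFP and 37.1 ± 8.36 in dnMKL1 libraries (SD, n = 5 each), with ranges of 12.1 to 20.2 and 29.5 to 50.1 that did not overlap. Phactr2 and Sf3b5 had log2 fold changes of 0.34 and 0.30 in the authors' deposited table. Utrn and Ltv1 did not pass.

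Beyond the members, 54 other imprinted genes were examined, in lists by the allele usually expressed where they are imprinted. Imprinting of several is limited to placenta or brain, and it was not measured in these cells. Of 36 tested, 14 (38.9%) were called in either direction, against 34.1% of all tested genes, with 8 higher and 6 lower. The median log2 fold change of the 48 with one was 0.10. By direction, the shares of all tested genes were 16.6% higher and 17.4% lower, and differences of the allele lists from these were not tested. Of 21 tested genes on the maternal list, 2 (Cd81, Osbpl5) were higher and 4 (Nap1l4, Ube3a, Slc22a3, Commd1) lower. Of 15 tested genes on the paternal list, 6 (by adjusted p, Ddc, Ndn, Inpp5f and Airn first) were higher and 2 (Slc38a4, Mcts2) lower. Peg10, another of the 6 and a retrotransposon-derived gene of placental growth, named after its values were seen, had 1 read in the GFP libraries and 17 in the dnMKL1 libraries, with 1.09 to 3.80 normalized counts in dnMKL1 and 0 to 0.821 in GFP. Ndn, which codes for necdin, had implied means of 105.4 and 167.7 (0.67 ± 0.17 SE) and Slc38a4, an amino acid transporter, 1236 and 742.8 (-0.73 ± 0.11 SE) in the authors' deposited table. Gnas (base mean 17052.7) and Igf2r (3285) were the most abundant that did not pass. Snrpn, whose exons overlap those of Snurf, had 1 read in all. The difference between the allele groups was not tested.

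The receptors and downstream enzymes of IGF and insulin signalling showed 1 call among 11 genes, a lower Insr, the insulin receptor (implied 1160 and 932.1 normalized counts, log2 fold change -0.32 ± 0.12 SE, adjusted p of 0.0260 in the authors' deposited table, Wald test). Of all tested genes, 16.6% were called higher and 17.4% lower, and differences of the lists here from these shares were not tested. The ligand Igf1 had a log2 fold change of -0.08 ± 0.34, and Igf1r -0.00 ± 0.14. Of 16 other genes of the juvenile growth programme, 14 had a fold change and 3 were higher, beside 16.6% of all tested genes. These were Sox4 (0.99 ± 0.24 SE), a transcription factor, Smo (0.55 ± 0.11), the Hedgehog transducer, and Igf2bp2 (0.44 ± 0.14), an RNA-binding protein. Igf2bp1 had 3 reads in GFP and 17 in dnMKL1 libraries, with an adjusted p of 0.116. Lin28a and Hmga2 were listed at 0. Of 18 factors that maintain imprints, Dnmt1, the maintenance DNA methyltransferase, was the 1 that passed (0.28 ± 0.11 SE). Of 17 miRNA precursors within member loci, 15 were listed at 0 and the other 2, Mir335 and Mir673, had 1 read each, but poly(A) libraries do not capture mature miRNAs.

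**Figure D5:**
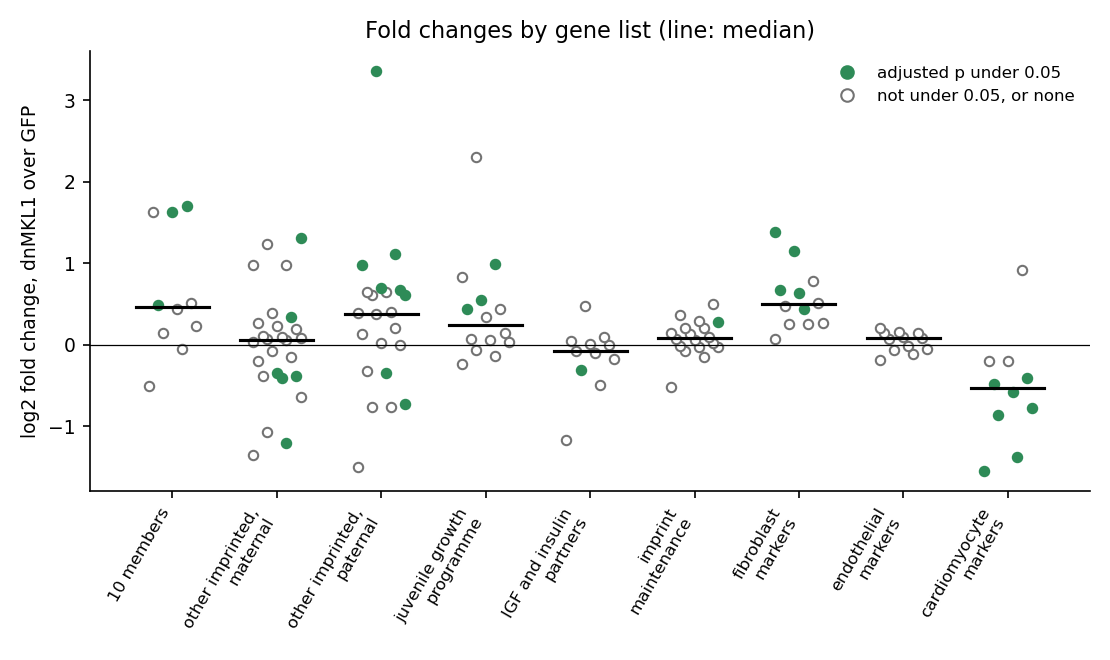
Log2 fold change of every gene in 9 lists (points, filled where the adjusted p was under 0.05), with the list's median as a line. The members' median of 0.47 lies beside medians of 0.06 and 0.38 for the other imprinted genes by allele, 0.49 for fibroblast markers and -0.54 for cardiomyocyte markers.

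Cell type markers moved between the groups. The same rule called 16.6% of all tested genes higher and 17.4% lower, and differences of the marker lists from these shares were not tested. Of 10 cardiomyocyte markers, 9 were tested, of which 7 were lower (Myl3, Actc1, Myh6 and Tnnt2 with the smallest adjusted p) and none higher. Myh7, the fetal myosin heavy chain, had no p-value and went the other way in value, with implied means of 3422 and 6481 (log2 fold change 0.92 ± 0.90 SE in the authors' deposited table). The summed implied level of the 10 went from 1546316 to 836676 normalized counts. None of the 10 was at 0, and Myh6, a cardiac myosin heavy chain, had implied means of 768372.9 and 421598.9, so the labelled cell type had its defining markers in both groups. Of 12 fibroblast markers, 5 were higher (Gsn, Fbln1, Col1a2 and Col1a1 with the smallest adjusted p) and none lower. All 12 had a fold change above 0, with a median of 0.49 on the log2 scale, the summed level went from 5220 to 8883, and none was at 0. The other 7, Pdgfra, Tcf21, Dpt and Dcn among them, did not pass. Tcf21 had 6.23 ± 2.67 and 10.6 ± 5.21 normalized counts (SD, n = 5 each), with ranges that overlapped. Meg3, Dlk1, Igf2, H19, Peg3 and Plagl1 are also transcribed in stromal cells of many organs. Of 12 endothelial markers none passed and the sum went from 4373 to 4445, and of 11 macrophage markers Cd68 was higher and the sum went from 190.5 to 167.3. Of 9 mural markers, 3 were higher (Cspg4, Tagln, Myh11) and 1, Acta2, was lower. Base means on this list differed widely, 7726 for Acta2 and 321.2 for Pdgfrb, and which cell type gave these reads was not measured. Krt8, of 6 epicardial markers, was higher, and of 6 erythroid genes none passed, with Hba-a1 and Hba-a2 at 0. The part of these cell types in the change of Plagl1, Meg3 and Grb10 was not tested.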

How the data were processed

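Polyadenylated RNA of 10 sorted cardiomyocyte libraries, 5 GFP and 5 dnMKL1, was sequenced, and the design text calls the libraries biological replicates. Per the labels' protocols, 10 ng of total RNA was amplified over 8 PCR cycles with a SMART-Seq kit and 500 pg of cDNA entered Nextera XT. Per the submitters' processing notes, CASAVA 1.8, STAR 2.5.3a and featureCounts of Subread 1.5.2 were used with mm10. The annotation and the use of strand in counting are not given in the sources used here. The kit does not mark strand.

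The table analysed is the authors' comparison, taken to come from DESeq2 because its columns carry the names that DESeq2 gives. Its base mean is a deposited signal, the mean of normalized counts. Its fold change and SE are deposited on the log2 scale, its Wald statistic is a deposited score (fold change over SE, largest gap 1.14e-05), and its p-value and Benjamini-Hochberg adjusted p-value are the authors'. A count test had been planned for counts per library. The table holds none and edgeR was not run, so the authors' adjusted p under 0.05 was used. It holds 0 columns of single libraries.

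Group means were implied from base mean and fold change. A base mean is a sum of whole reads, each divided by 10 times its library's size factor, so size factors were read from genes with 1 read and whole reads that sum to it were sought for genes with low base means. For the higher of these base means, such as that of Meg3, only sets near the implied group means were searched. A set of reads was accepted where it was the only one searched that gave the deposited fold change at the deposited SE. The fit was a negative binomial one written for this purpose. This succeeded for 42 of 42 genes tried, with a largest gap of 4.64e-07 in log2 fold change. The choice among sets by fold change and SE, on which the Meg3 reads rest, was not tested on reads known beforehand. Reads could be given for 3 of the 10 members, and libraries could not be matched to replicate numbers. They were compared by an exact two-sided permutation test, which, like the refits without 1 library, was added after seeing the data. Reads carry no molecular identifiers, so copies made by PCR could not be told from separate molecules. SDs over libraries are given for recovered genes, and the deposited SE stands for replicate error elsewhere.

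Gene coordinates and transcript lengths came from GENCODE M21 and promoters from RefSeq, both on GRCm38, the build that mm10 denotes. Promoters matched 8 of 10 members by symbol, all but H19 and Cdkn1c. A planned search for a PLAGL1 motif was not run. The members and all gene lists (other imprinted genes by allele, neighbours of each locus, IGF and insulin partners, juvenile growth programme, imprint maintenance, miRNA precursors, and cardiomyocyte, fibroblast, endothelial, mural, macrophage, erythroid and epicardial markers) were chosen with earlier results of these data known. All members are named, and of other lists those past the threshold, up to 4 in each direction by adjusted p, and up to 2 abundant ones that did not pass. Other genes named outside that rule, such as Peg10, Kcnq1ot1, Igf2bp1, Igf1, Igf1r and genes with few or 0 reads, were chosen after their values were seen. Alternatives covered the threshold, the adjustment, filters on base mean, scaling, a minimum fold change and leaving out libraries. Python 3.11.15, numpy 2.4.6, scipy 1.17.1, pandas 2.3.3 and sympy 1.14.0 were used.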

Additional observations from a re-analysis of the deposited data

Results flagged for a closer look

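Dlk1 in the dnMKL1 library of size factor 0.882 had 0 normalized counts, far below the other 4 dnMKL1 libraries, which lay between 2.17 and 2.53. It stood out by the gap to its nearest neighbour relative to the group's range. Of 6 groups examined, chance flags about 1 in 20. The 4 other libraries had 2 to 4 reads each, so 0 reads is a small difference in counts.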

How the results depend on the processing

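The number of members called higher was 3 in the main test and 2 to 3 over the alternatives: 2 where genes had to reach a base mean of 100, which leaves out Meg3, and 2 with an absolute log2 fold change of at least 0.5, which leaves out Grb10. No member was called lower under any threshold, adjustment, filter or scaling tried. The members' median log2 fold change ran from 0.23 to 0.76. Of the other imprinted genes, 14 were called in the main test and 10 to 19 over the alternatives that changed the threshold, adjustment, filter or scaling, and 9 with an absolute log2 fold change of at least 0.5, where fewer genes can pass. Scaling both groups to the same total moves every log2 fold change up by 0.288. It turned Peg3 from -0.05 to 0.234, called 5685 genes higher and 927 lower in place of 2340 and 2452, and gave 17 higher and 2 lower of the other imprinted genes in place of 8 and 6. The other 9 members kept their sign, and Plagl1, Meg3 and Grb10 stayed higher. Leaving out 1 library at a time gave log2 fold changes of 1.40 to 1.86 for Meg3, 1.29 to 2.01 for Dlk1 and -0.0124 to 0.713 for Rian. No paired analysis was possible because the table holds no columns of single libraries and the recovered libraries carry no replicate numbers. The planned count tests, and refits without 1 library for the other 7 members, were not run for the same reason. Reads were few for Dlk1 (14) and Rian (40), though Peg10, Tspan32 and Trpm5 passed the test with 18, 19 and 20 reads.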
